A study of Mus musculus with 10 samples.

Results

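GABA-A receptor subunits were followed in a mouse model of MYC-driven, SMARCA4-deficient medulloblastoma (MB). The genes described are 7 of the 50559 genes in the raw count tables, chosen by symbol: the alpha subunits Gabra2, Gabra3, Gabra5 and Gabra6, the beta subunit Gabrb2, the gamma subunit Gabrg1 and the delta subunit Gabrd. All 7 were counted in each of the 10 libraries and passed the filter on low counts together with 29952 genes in all. RNA sequencing was performed on FFPE tissue of 3 groups. The first group was 4 MYC/SMARCA4 tumors, taken as biopsy punches at an age of 112, 96, 89 and 79 days from immunodeficient CD1nu/nu mice whose cerebella had received granule cell precursors (GCPs) of tamoxifen-induced Math1-creERT2::Smarca4fl/fl pups, transduced with a lentivirus carrying Myc. The second was 3 whole cerebella of Math1-creERT2::Smarca4fl/fl mice at postnatal day 7 (P7), which had also received 0.4 mg tamoxifen on day 3 but not the added Myc. Their Smarca4 deletion is partial. The paper reports that many cultured GCPs kept SMARCA4 after tamoxifen, while all tumor cells had lost it. The third was 3 SHH MB of Math1-cre::Smofl/wt mice at an age of 7 days, in which Smarca4 was not targeted.

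The models have limits that touch every value below. The Math1 promoter drives Cre in GCPs, the dividing cells that give rise to cerebellar granule neurons, and the grafted GCPs were not sorted for recombined or transduced cells. A biopsy punch holds every cell type of the piece of tissue, including cerebellum of the adult host, and the tumors and the other groups differ in age as well as in genotype. Age, host and genotype cannot be told apart in these comparisons.

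GABA-A receptors are chloride channels built of several subunits that open when the inhibitory transmitter GABA binds. Alpha and beta subunits form the GABA binding site, and the third kind of subunit sets location: receptors with gamma subunits are mostly held at synapses, while those with the delta subunit lie outside them and give a steady inhibitory current. In the cerebellum, alpha6 is the subunit typical of mature granule neurons, where it occurs with beta2 and delta, while alpha2, alpha3 and alpha5 are more typical of immature neurons, and gamma1 is found in glia including Bergmann glia.

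The 7 genes lie on 5 chromosomes of GRCm39, and 2 pairs are neighbors. Gabra6 (chr11:42197264-42211910, minus strand) and Gabrb2 (chr11:42310493-42523417, plus strand) are 98.6 kb apart. Gabra2 (chr5:71114573-71253662, minus strand) and Gabrg1 (chr5:70906506-70999960, minus strand) are 114.6 kb apart. Gabrd (chr4:155469407-155482872), Gabra5 (chr7:57055164-57240831) and Gabra3 (X chromosome, 71476275-71700723) lie alone among the 7, all on the minus strand. Exons of Gabra2, Gabra5 and Gabrd overlap exons of genes on the opposite strand by 304, 714 and 203 bases, and whether strand was used in counting is not given in the sources used here, so reads of these stretches cannot be assigned with certainty. Gabra6, Gabrb2, Gabra3 and Gabrg1 have no such overlap.

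The 250 bases before the start of the canonical transcript are shown for the 3 subunits that varied together across the tumors, each 5′ to 3′ on the strand of its gene in GRCm39. Capitals mark CACGTG, the E-box bound by MYC with MAX, and TTGGC, the core letters of nuclear factor I sites, which appears as GCCAA when it is on the other strand. For Gabrd, as for Gabra3 and Gabra5, that start lies inside the gene's outer limits, since other annotated transcripts begin further upstream. The windows are chr11:42211911-42212160 (minus strand), chr11:42310243-42310492 (plus strand) and chr4:155482585-155482834 (minus strand).
Gabra6: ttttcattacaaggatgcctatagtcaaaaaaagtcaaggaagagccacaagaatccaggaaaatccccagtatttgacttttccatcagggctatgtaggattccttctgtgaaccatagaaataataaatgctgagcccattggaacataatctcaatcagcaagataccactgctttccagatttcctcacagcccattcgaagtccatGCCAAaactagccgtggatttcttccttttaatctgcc
Gabrb2: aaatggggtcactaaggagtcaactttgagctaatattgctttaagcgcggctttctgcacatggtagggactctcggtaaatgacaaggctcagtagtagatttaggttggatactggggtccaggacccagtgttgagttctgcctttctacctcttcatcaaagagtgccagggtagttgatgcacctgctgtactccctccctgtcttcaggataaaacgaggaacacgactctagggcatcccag
Gabrd: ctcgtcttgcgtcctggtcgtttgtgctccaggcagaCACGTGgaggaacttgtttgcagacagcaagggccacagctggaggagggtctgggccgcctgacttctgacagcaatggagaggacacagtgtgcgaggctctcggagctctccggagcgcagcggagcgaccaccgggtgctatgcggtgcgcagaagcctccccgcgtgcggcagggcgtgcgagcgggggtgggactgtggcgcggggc
Both motifs were searched on both strands, and their letters cannot overlap each other by more than 1 base. TTGGC was present in the windows of Gabra6, 38 bases before the start, and of Gabrg1, 29 bases before it, and in 43.289% of all 21770 windows of this length before protein-coding genes. CACGTG was present in the window of Gabrd alone among the 7 genes, and in 6.261% of all windows. These matches are a description of the letters.

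Library totals were between 5663491 and 9352109 counts, and TMM factors were between 0.619 and 1.28 in the tumors and between 1.008 and 1.196 elsewhere. Myc was at 152, 368, 1590 and 1020 CPM (counts scaled by TMM-adjusted library sizes) in tumors 1 to 4. In the other libraries it was between 13 and 45.7 CPM, so the difference had the direction the labels give. Smarca4 was between 136 and 244 CPM in tumors, between 221 and 282 CPM in P7 cerebella and between 491 and 590 CPM in SHH MB; counts per gene pool reads inside and outside the deleted part, so they do not check the deletion. Mitochondrial and ribosomal RNA-like rows took between 4.25% and 7.98% of tumor counts, with tumor 1 highest, and between 1.79% and 2.38% elsewhere. No source used here says that libraries of a group came from separate litters, and p-values measure the spread between these libraries.

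Gabra6 was the subunit most raised in MYC/SMARCA4 tumors. The raw counts were 1563, 970, 111 and 640 in tumors 1 to 4, against 179, 165 and 68 in P7 cerebella and 17, 30 and 16 in SHH MB. On the log2 CPM scale these correspond to levels of 8.60, 7.45, 3.98 and 6.29 in tumors, 4.21, 4.19 and 3.32 in P7 cerebella, and 1.55, 1.93 and 1.35 in SHH MB. All 4 tumors were above all 3 SHH MB, and 3 of 4 tumors were above all P7 cerebella, while tumor 3 lay within the P7 range. Against SHH MB, Gabra6 rose by a log2 fold change of 5.84 ± 0.92 (SE, 95% interval 3.85 to 7.84, n = 4 against 3), or 57.5-fold (edgeR quasi-likelihood test, adjusted p = 0.00389). It also passed the stricter call of a log2 fold change of at least 2.5 with an adjusted p of at most 0.01, which 0.124% of all genes tested passed in this direction. Against P7 cerebella, Gabra6 rose by 3.41 ± 0.80 (SE, edgeR adjusted p = 0.0278). The fitted value is near the ratio of mean CPM (164 in tumors and 2.82 in SHH MB), in which tumor 1, at 387 CPM, counts most. The plain difference of mean log2 CPM between tumors and SHH MB was 4.97. The call against SHH MB held in 19 of 19 alternatives, including each that left out a library (log2 fold change 4.51 to 6.05), while the call against P7 cerebella held in 11 of 19 (2.55 to 3.57). It was lost without tumor 2 (edgeR adjusted p = 0.0533), without P7 cerebellum 1, 2 or 3 (0.108, 0.133 and 0.157), without SHH MB 1 (0.0502), with the replicate block (0.0621), in a fit of only the 2 groups (0.103) and with limma on the deposited VST values (0.067).

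Gabrb2, the beta subunit that pairs with alpha6, was the most abundant of the 7 genes in reads. Reads of this gene numbered 2872, 1720, 355 and 1300 in tumors 1 to 4, 1219, 1073 and 573 in P7 cerebella, and 228, 290 and 222 in SHH MB. The levels were 9.48, 8.28, 5.64 and 7.31 log2 CPM in tumors, 6.96, 6.88 and 6.36 in P7 cerebella and 5.16, 5.11 and 4.99 in SHH MB. Again all tumors were above all SHH MB, and tumor 3 alone was below the P7 cerebella. The log2 fold change against SHH MB was 3.19 ± 0.69 (SE, edgeR adjusted p = 0.0212). Against P7 cerebella it was 1.51 ± 0.63 and did not pass (edgeR adjusted p = 0.162), but it passed without tumor 3 (1.65, edgeR adjusted p = 0.0118). Without tumor 1 it was 0.69 (edgeR adjusted p = 0.335), and with limma 0.99 (adjusted p = 0.313). The call against SHH MB was lost when any SHH MB library was left out (edgeR adjusted p = 0.117, 0.115 and 0.13) and in a fit of only the 2 groups (0.0848).

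Gabrd, the subunit of extrasynaptic receptors, was led by tumor 1. Its counts were 685, 150, 37 and 106 in tumors 1 to 4, 78, 76 and 54 in P7 cerebella, and 18, 33 and 11 in SHH MB. Levels were 7.41, 4.77, 2.45 and 3.72 log2 CPM in tumors, 3.04, 3.10 and 3.00 in P7 cerebella, and 1.62, 2.06 and 0.88 in SHH MB. The tumors followed the same order as for Gabra6 and Gabrb2: all were above all SHH MB, and tumor 3, as for Gabrb2, was below the P7 cerebella. The log2 fold change against SHH MB was 4.26 ± 1.02 (SE, edgeR adjusted p = 0.0337), and that against P7 cerebella was 2.73 ± 0.93 (edgeR adjusted p = 0.0935). The call against SHH MB was lost in 9 of 19 alternatives, with the replicate block (edgeR adjusted p = 0.0564), in a fit of only the 2 groups (0.115) and with limma among them, as well as each without 1 SHH MB (edgeR adjusted p = 0.152, 0.129 and 0.178) or without 1 P7 cerebellum (0.0555, 0.0553 and 0.0582). Against P7 cerebella, Gabrd passed without tumor 3 (2.84, edgeR adjusted p = 0.0142) and with DESeq2 (2.82, adjusted p = 0.00944), but without tumor 1 the value was 0.92 (edgeR adjusted p = 0.226) and with limma 1.5 (adjusted p = 0.213). Against SHH MB, leaving out tumor 1 gave 2.41 with the call kept (edgeR adjusted p = 0.0112), and limma gave 2.67 (adjusted p = 0.0846).

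**Figure D1:**
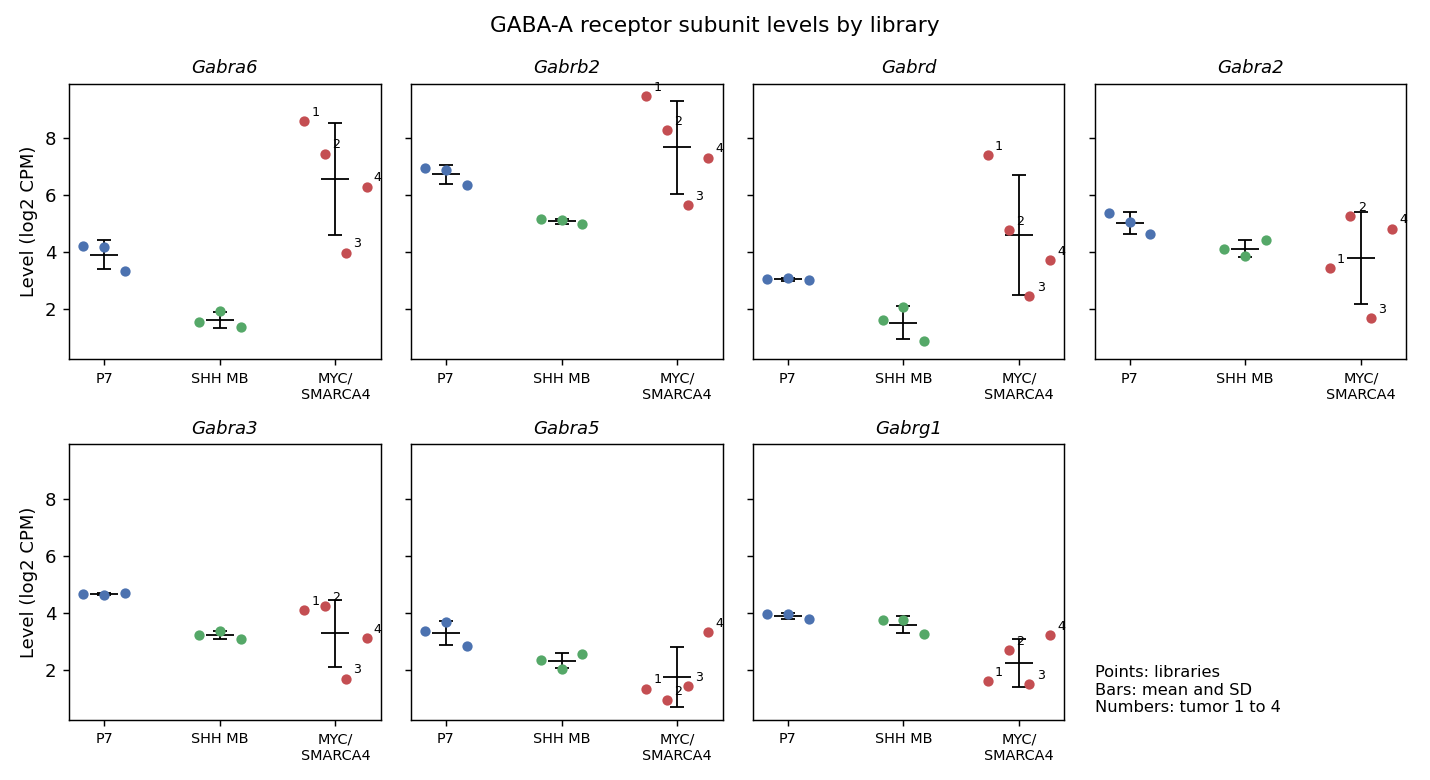
Level of each subunit in log2 CPM (y axis) for P7 cerebella, SHH MB and MYC/SMARCA4 tumors (x axis); points are libraries, numbers name tumors 1 to 4, and bars are the mean and SD. In the upper row, Gabra6, Gabrb2 and Gabrd are highest in tumor 1 and lowest among tumors in tumor 3, while Gabrg1 in the lower row has all 4 tumors below the other libraries.

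The other alpha subunits did not pass the test against either group. Gabra2 had 42, 212, 21 and 229 counts in tumors 1 to 4, 403, 304 and 172 in P7 cerebella and 108, 120 and 149 in SHH MB. The tumors split, with levels of 5.26 and 4.82 log2 CPM in tumors 2 and 4 within the P7 range of 4.63 to 5.37, and 3.42 and 1.68 in tumors 1 and 3 below every SHH MB. The log2 fold changes of Gabra2 were −0.73 ± 0.58 against P7 cerebella and 0.20 ± 0.59 against SHH MB (SE, edgeR adjusted p = 0.425 and 0.884). The second has no firm sign, since the mean log2 CPM was 3.8 in tumors and 4.12 in SHH MB.

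Gabra3 had 67, 103, 21 and 68 counts in tumors 1 to 4, 245, 224 and 179 in P7 cerebella, and 58, 84 and 57 in SHH MB. All tumors, at 1.68 to 4.23 log2 CPM, were below all P7 cerebella, which lay close together at 4.63 to 4.69, and SHH MB at 3.07 to 3.35 lay within the range of the tumors. The log2 fold change was −1.12 ± 0.46 against P7 cerebella and 0.35 ± 0.47 against SHH MB (SE, edgeR adjusted p = 0.151 and 0.725). The first passed without tumor 3 (−0.96, edgeR adjusted p = 0.0346) and with at least 10 counts required in every library (−1.47, adjusted p = 0.0438).

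Gabra5 had the lowest mean per kilobase of the 4 alpha subunits in each group, with 9, 9, 17 and 79 counts in tumors 1 to 4, 98, 114 and 48 in P7 cerebella, and 31, 32 and 39 in SHH MB. Tumor 4 stood at 3.31 log2 CPM, within the P7 range of 2.83 to 3.67, and the other tumors at 0.92 to 1.41 were below all P7 cerebella and all SHH MB. Neither comparison passed (log2 fold changes −1.26 ± 0.54 and −0.21 ± 0.56, SE, edgeR adjusted p = 0.17 and 0.869). Without tumor 4 the log2 fold change against P7 cerebella was −2.28 and passed (edgeR adjusted p = 0.018), and that against SHH MB was −1.22 (adjusted p = 0.141).

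Gabrg1 was the single gene of the 7 called lower in tumors, and only against P7 cerebella. Gabra2, Gabra3 and Gabra5 also had negative log2 fold changes there (−0.73, −1.12 and −1.26) but did not pass. Counts were 11, 34, 18 and 73 in tumors 1 to 4, 149, 139 and 94 in P7 cerebella, and 84, 113 and 65 in SHH MB. The levels of 1.59, 2.68, 1.48 and 3.20 log2 CPM in tumors were below 3.95, 3.95 and 3.77 in P7 cerebella and 3.74, 3.76 and 3.25 in SHH MB. All tumors were thus below all libraries of both other groups, with tumor 4 nearest to them. Gabrg1 fell by 1.5 on the log2 scale against P7 cerebella (SE 0.41, edgeR adjusted p = 0.0477), and the value against SHH MB was −1.21 ± 0.41 (SE, edgeR adjusted p = 0.12). The call lies close to the threshold and held in 9 of 19 alternatives. It was lost without tumor 2 (edgeR adjusted p = 0.0773), without P7 cerebellum 1, 2 or 3 (0.159, 0.19 and 0.149) and without SHH MB 1, 2 or 3 (0.091, 0.0913 and 0.0859). It was also lost with limma (adjusted p = 0.0561), with no filter on low counts (edgeR, 0.0661) and in a fit of only the 2 groups (edgeR, 0.126). The value against SHH MB passed without tumor 4 (−1.68, edgeR adjusted p = 0.0399) and with at least 10 counts required in every library (−1.43, adjusted p = 0.0366). Of the markers of astrocytes and Bergmann glia, 7 of 8 were lower in all tumors than in all P7 cerebella and 3 of 8 than in all SHH MB. The mean level of this list was between 3.71 and 6.68 log2 CPM in tumors, between 7.68 and 7.73 in P7 cerebella and between 6.87 and 7.08 in SHH MB. By summed CPM, tumors 1, 3 and 4 were at 404, 493 and 1880. Tumor 2, at 2460, lay within the P7 range of 2420 to 2490 and above the SHH MB range of 1960 to 2280. Markers of oligodendrocyte precursors (3 of 4 below all P7 cerebella and 4 of 4 below all SHH MB) and of choroid plexus (4 of 5 and 1 of 5) were also lower. Their mean levels were between 2.96 and 4.37 log2 CPM and between 1.59 and 2.64 in tumors, against 5.38 to 5.79 and 5.03 to 5.58 in P7 cerebella. None of these markers was at 0 in any library, and their part in the result was not tested. In bulk tissue, fewer cells of a type and less RNA per cell cannot be told apart.

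Against P7 cerebella, the edgeR test called 1 of 7 subunits higher and 1 lower, where it called 3.99% of all genes tested higher and 2.27% lower. None of the 7 was above P7 cerebella in all tumors, which 10.3% of all genes were, and 2 (Gabra3 and Gabrg1) were below in all tumors, which 10.7% of all genes were. Against SHH MB, it called 3 of 7 higher and 0 lower, where it called 2.43% higher and 2.26% lower among all genes tested. At an unadjusted p under 0.05, 4 of 7 differed from SHH MB, as did 19.8% of all genes, and 6 of 7 from P7 cerebella, as did 25.2%. DESeq2 called 3 of 7 against P7 cerebella and 3 of 7 against SHH MB, where it called 13.4% and 12% of all genes in either direction. Limma on the VST values called 0 and 2 of 7, where it called 2.43% and 1.9% of all genes. Without overlap, 3 were higher in tumors than in SHH MB and 1 was lower, against 7.83% and 8.3% of all genes. The median log2 fold change of all genes tested was −0.05 against P7 cerebella and 0.01 against SHH MB. Both comparisons share the same 4 tumors. By the two-sided exact permutation test over libraries, p was 0.057 for Gabra6 against SHH MB and 0.114 against P7 cerebella, with 0.029 the smallest that 4 against 3 libraries allow.

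**Figure D2:**
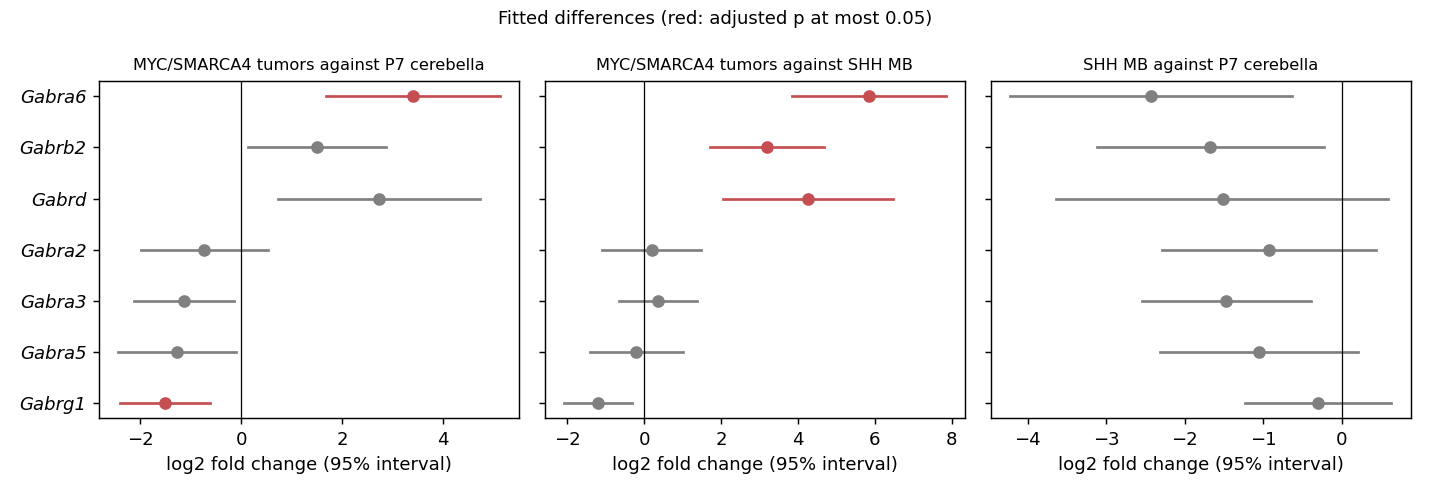
Fitted log2 fold change of each subunit with its 95% interval (x axis) in each of the 3 comparisons, red where the adjusted p is at most 0.05. Gabra6, Gabrb2 and Gabrd are red against SHH MB, Gabra6 and Gabrg1 against P7 cerebella, and no subunit is red between SHH MB and P7 cerebella.

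The subunits also differed between the 2 control groups. All 7 subunits were lower in every SHH MB than in every P7 cerebellum, which 19.0% of all genes were, while 17.8% were higher. The exact permutation p was 0.1 for each, the smallest that 3 against 3 libraries allow. The log2 fold changes lay between −0.30 for Gabrg1 and −2.43 for Gabra6, and 0 of 7 passed the edgeR test with the spread shared by the 3 groups, where 0.224% of all genes passed in either direction. At an unadjusted p under 0.05, 3 of 7 differed, as did 8.8% of all genes. DESeq2 and limma called 0 of 7, and 2.39% and 0.145% of all genes. A fit of only these 2 groups, which leaves out the spread between tumors, gave 6 of 7 lower, where 10.3% of all genes were lower. In that fit the log2 fold change was −2.41 for Gabra6 (edgeR adjusted p = 1.87e-07), −1.66 for Gabrb2 (1.22e-09) and −1.45 for Gabra3 (7.22e-07), and −0.28 for Gabrg1, which did not pass (0.366). The count of calls in this comparison thus rested on whether the tumors entered the estimate of the spread.

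The subunits differed among single tumors more than most genes. When the paper clustered the expression of the 4 tumors with human MB, only tumor 3 grouped with SHH MB. Gabra6, Gabrb2 and Gabrd shared the order tumor 1, 2, 4, 3 from high to low, with the highest tumor 24.5, 14.3 and 31.2 times the lowest. Myc ran in the reverse order, from 10.63 log2 CPM in tumor 3 to 7.25 in tumor 1. How Myc bears on the levels of these subunits was not tested. Gabra2 followed the order 2, 4, 1, 3 with a range of 12-fold, Gabra3 2, 1, 4, 3 with 5.85-fold, Gabra5 4, 3, 1, 2 with 5.23-fold and Gabrg1 4, 2, 1, 3 with 3.29-fold. On the log2 CPM scale, tumor 1 held the most Gabra6, Gabrb2 and Gabrd but ranked 3 of 4 in Gabra2, Gabra5 and Gabrg1. Tumor 4 held the most Gabra5 and Gabrg1, and tumor 3 held the least of 6 subunits. That scale uses TMM factors of 0.619 in tumor 1 and 1.28 in tumor 3. Counts per kilobase, scaled as described below without these factors, spanned less between tumors 1 and 3. They were 250 and 33.9 for Gabra6, 105 and 24.7 for Gabrb2, and 43.8 and 4.52 for Gabrd. These 3 genes kept their order of tumors, and that of the other 4 subunits changed. The SD between tumors of Gabrd, Gabra6, Gabrb2 and Gabra2 was at the 99.1, 98.4, 95.3 and 95.1 percentile of 13235 genes, and that of Gabra3, Gabra5 and Gabrg1 at the 85.6, 81.5 and 70.1 percentile. These genes had a mean level of at least 3 log2 CPM, and their median SD was 0.59 log2 CPM. Gabra5, with a mean of 2.37, was not among them and was thus ranked against genes with higher levels.

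Levels between genes were compared as counts per kilobase of the union of annotated exons, scaled to the same total in each library over all genes with a length. On this scale Gabra6 led in the tumors with a mean of 154 (SD 93.7, n = 4), followed by Gabrb2 at 67.8 and Gabrd at 17.4, then Gabra2 at 7.26, Gabra3 at 4.75, Gabrg1 at 1.80 and Gabra5 at 1.71. No neighbors in this order were separate over all tumors, but Gabra6 exceeded Gabrb2 within each of the 4 tumors. In P7 cerebella Gabrb2 led at 51.1, above Gabra6 at 31.8, Gabra2 at 19.1, Gabra3 at 19.1, Gabrg1 at 7.54, Gabrd at 6.71 and Gabra5 at 5.65. In SHH MB Gabrb2 led at 16.1, above Gabra2 at 10.1, Gabra3 at 6.81, Gabrg1 at 6.11, Gabra6 at 5.88, Gabra5 at 2.74 and Gabrd at 2.29. Gabrb2 was separate from the next gene over all libraries in both control groups, Gabra3 from Gabrg1 and Gabrg1 from Gabrd in P7 cerebella, and Gabra2 from Gabra3 and Gabra6 from Gabra5 in SHH MB. Gabra6 and its neighbors Gabra2 in P7 cerebella and Gabrg1 in SHH MB overlapped.

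The composition of the alpha subunits set the tumors apart even where their levels did not. Of the sum of the 4 alpha subunits per kilobase, Gabra6 made up 97.6%, 90.7%, 85.9% and 85.3% in tumors 1 to 4, 44.0%, 45.5% and 35% in P7 cerebella, and 22.2%, 29.2% and 18% in SHH MB. Tumor 3, whose Gabra6 level lay within the P7 range, thus had a Gabra6 share like that of tumor 4. The means were 89.9% ± 5.69 (SD, n = 4), 41.5% ± 5.68 and 23.1% ± 5.66 (SD, n = 3 each). Gabra2 held a mean of 4.83% in tumors, 25.2% in P7 cerebella and 39.5% in SHH MB. Gabra3 held 3.54%, 25.9% and 26.7%, and Gabra5 1.74%, 7.42% and 10.6%. With all 6 alpha subunits of the annotation in the sum, the Gabra6 share was between 53.7% and 63.8% in tumors, between 22.5% and 29.9% in P7 cerebella, and between 11.8% and 17.6% in SHH MB. The groups did not overlap on either sum; this is a description with no test, and the shares depend on the lengths assigned to each gene.

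**Figure D3:**
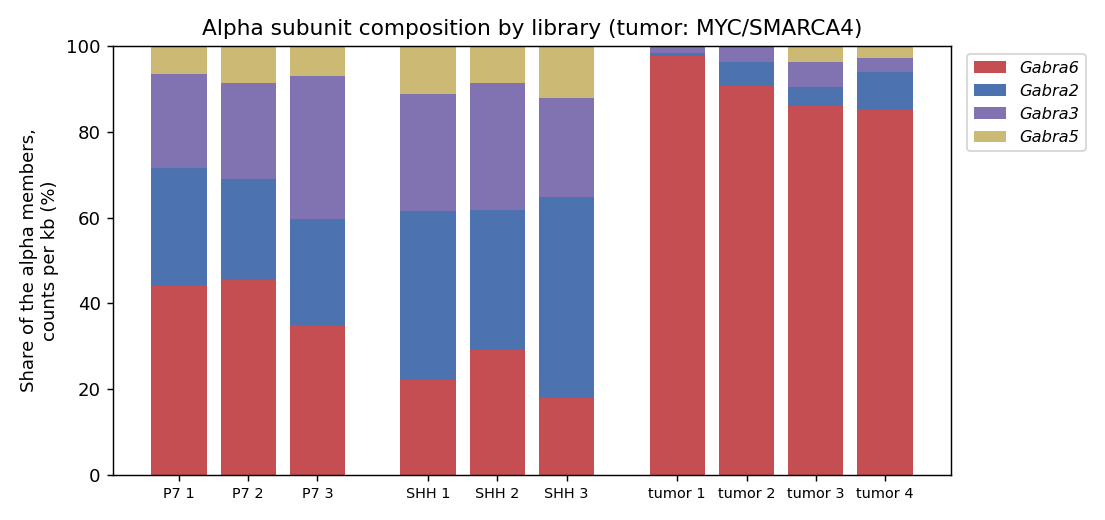
Share of each of the 4 alpha subunits in their sum of counts per kilobase (y axis, %), 1 bar per library of P7 cerebella, SHH MB and MYC/SMARCA4 tumors (x axis). Gabra6, in red, fills 85.3% to 97.6% of the bars of tumors and at most 45.5% of the others.

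Several marker lists followed the order of Gabra6, Gabrb2 and Gabrd across the tumors, and the other 4 subunits had other orders. The mean level of 11 markers of mature granule neurons, led by Rbfox3 and Fat2, was 8.42, 7.33, 4.96 and 6.71 log2 CPM in tumors 1 to 4, the same order as Gabra6, and lay between 6.08 and 6.43 in P7 cerebella and between 5.09 and 5.15 in SHH MB. Single markers of this list differed: 2 of 11 were higher and 1 of 11 lower in all tumors than in all P7 cerebella. Against SHH MB, 3 of 11 were higher and 0 lower without overlap. By staining, the paper found no signal in the tumors for NeuN, the protein of Rbfox3. The levels here are of RNA from whole punches and do not show which cells hold it. Purkinje cell markers were at 9.61, 7.11, 3.97 and 6.68 in tumors 1 to 4, between 6.85 and 7.04 in P7 cerebella and between 4.66 and 5.53 in SHH MB. Markers of inhibitory interneurons (6.76, 4.87, 3.39 and 4.72) and of myelinating oligodendrocytes (8.03, 5.65, 3.52 and 5.09) followed the same order among tumors. Endothelial markers did so as well (5.82, 4.49, 3.72 and 4.28), and microglia markers were likewise highest in tumor 1 and lowest in tumor 3 (3.57, 3.13, 2.38 and 3.52). Tumor 1 was thus highest and tumor 3 lowest in each of these 6 lists, which are not limited to neurons. Markers of GCPs went another way, with 3.56, 5.97, 5.60 and 5.42 in tumors 1 to 4, between 6.60 and 6.83 in P7 cerebella and between 7.81 and 7.95 in SHH MB. No marker of these lists was at 0 in any library, and their part in the levels of the subunits was not tested.

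Each subunit was also set against the granule neuron list of the same library. The level of Gabra6 minus the mean of the list was 0.18, 0.12, −0.98 and −0.42 log2 in tumors 1 to 4, −2.03, −2.23 and −2.77 in P7 cerebella, and −3.60, −3.16 and −3.78 in SHH MB. All tumors, tumor 3 included, were above all other libraries on this scale. Gabrb2 followed the list more closely: its difference was 1.05, 0.95, 0.68 and 0.60 in tumors 1 to 4, 0.72, 0.45 and 0.27 in P7 cerebella, and 0.01, 0.02 and −0.14 in SHH MB. Over the 10 libraries, the range of Gabrb2 was 4.48 log2 before and 1.19 after the list was subtracted, that of Gabra6 was 7.25 and 3.96, and that of Gabrd was 6.53 and 3.24. It widened for Gabrg1 from 2.47 to 5.52, for Gabra5 from 2.75 to 4.51 and for Gabra2 from 3.69 to 4.29, and for Gabra3 it was 3.01 and 2.95. The difference for Gabrd had a mean of −2.27 in tumors, −3.21 in P7 cerebella and −3.60 in SHH MB. All tumors, at −2.99 to −1.01, were above all other libraries for Gabrd as well, where the highest were −3.09 in P7 cerebella and −3.03 in SHH MB. These are differences of log2 CPM and carry no test, and the part of granule neuron content in the levels was not tested.

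**Figure D4:**
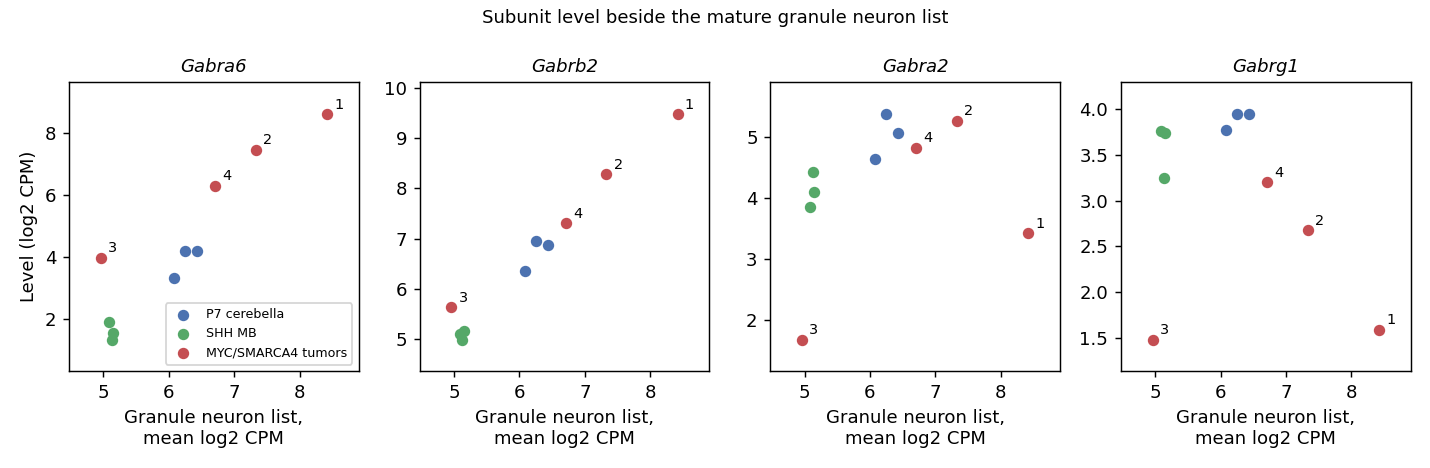
Level of Gabra6, Gabrb2, Gabra2 and Gabrg1 in log2 CPM (y axes) against the mean log2 CPM of 11 mature granule neuron markers (x axis); each point is a library and numbers name tumors 1 to 4. Gabrb2 lies near a single line through all 10 libraries, Gabra6 lies higher in tumors than in other libraries at a like level of the list, and Gabra2 and Gabrg1 are low in both tumor 1 and tumor 3.

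The genes whose pattern was most like each subunit were found by the root mean square difference of centered log2 CPM over the 10 libraries, among 13229 genes. For Gabra6, Cbln3, a secreted protein of granule neurons and a gene of the granule neuron list, was closest with a difference of 0.41, and Gm51950, with 0.70, was among the 3 closest. Gabrb2 was nearest to Vamp1 (0.21), a vesicle fusion protein, Cacnb4 (0.22), a calcium channel subunit, and Eno2 (0.24), the neuronal enolase. The measure grows with the size of a gene's own pattern, whose root mean square was 2.35 for Gabra6 and 1.4 for Gabrb2. Its values therefore do not rank 1 subunit's partners as closer than another's. Gabrd was nearest to Syt2 (0.34), a calcium sensor of fast transmitter release, Mal (0.34), a myelin protein, and Rnf112 (0.35). Gabra2 was nearest to Cntnap5a (0.28), Ppp1r3c (0.33) and Sparcl1 (0.38), a protein secreted by astrocytes, and Gabra3 to Samd12 (0.20), Lrp1b (0.21) and Tmem151b (0.21). Gabra5 was nearest to Fbn1 (0.37), Tenm2 (0.41) and Gm33585 (0.42), and Gabrg1 to Gm6145 (0.26), Pmepa1 (0.27) and Cdkn1c (0.28), an inhibitor of the cell cycle. Among the 7 subunits themselves, Gabrb2 and Gabrd were the closest pair (0.54), and Gabra6 and Gabrg1 the farthest (2.94).

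Outside the 7 subunits, 43 further genes of the GABA system were counted in 5 lists. The edgeR test called 2 of 43 against P7 cerebella (0 higher and 2 lower) and 4 of 43 against SHH MB (3 higher and 1 lower), to be read against the shares of all genes called that are given above. DESeq2 called 6 and 11 of 43, and limma 2 and 2. Of the 12 other GABA-A subunits, the edgeR test found 0 higher and 1 lower against P7 cerebella, and 1 higher and 0 lower against SHH MB. DESeq2 called 3 of 12 in each comparison and limma 1, and 4 and 3 of 12 had an unadjusted p under 0.05. The subunit lower than in P7 cerebella was Gabrg3, a further gamma subunit, with 16, 48, 43 and 59 counts in tumors 1 to 4 and 161, 154 and 123 in P7 cerebella (log2 fold change −1.38, edgeR adjusted p = 0.0219). The median log2 fold change of these 12 was −0.68 against P7 cerebella and 0.12 against SHH MB.

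Of 9 genes of GABA synthesis, vesicle loading, uptake and breakdown, 1 passed the edgeR test in each comparison, and it was lower in both. This was Slc6a11, the GABA transporter GAT3 of astrocytes. Its reads numbered 45, 246, 68 and 254 in tumors 1 to 4, 1150, 1541 and 1215 in P7 cerebella and 930, 1500 and 1131 in SHH MB. All tumors were far below all other libraries, and the log2 fold changes were −2.67 against P7 cerebella and −2.74 against SHH MB (edgeR adjusted p = 0.00942 and 0.0057). Most astrocyte markers given above were also lower than in P7 cerebella, but not their summed CPM in tumor 2, and their part was not tested. Against SHH MB, 6 of 9 had an unadjusted p under 0.05, and DESeq2 called 3 genes higher beside Slc6a11, while limma called 1 in all. Named here after their values were seen, these were Gad1 and Gad2, which make GABA, and Slc32a1, which loads it into vesicles. Their edgeR log2 fold changes against SHH MB were 2.67, 2.18 and 2.27 and did not pass (adjusted p = 0.101, 0.114 and 0.13). For each of them, 3 tumors were above all SHH MB and 1 was below all SHH MB.

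Of 15 genes of receptor anchoring and trafficking, 0 passed the edgeR test against P7 cerebella, where 3 had an unadjusted p under 0.05, DESeq2 called 2 and limma 0. Against SHH MB 2 rose. These were Iqsec3, a gephyrin partner of inhibitory synapses (log2 fold change 2.29, edgeR adjusted p = 0.0217), and Nsf, an ATPase of vesicle fusion (2.08, edgeR adjusted p = 0.0374). DESeq2 also called 2 and limma 0. Both genes lay within the SHH MB range in tumor 3, with 20.7 CPM against 11.6 to 20.9 CPM for Iqsec3 and 79.1 CPM against 61.5 to 81.0 CPM for Nsf. The chloride transporters set the direction of the current through these receptors. Slc12a5 (KCC2), which exports chloride, had 661, 241, 21.1 and 152 CPM in tumors 1 to 4, 115, 140 and 127 CPM in P7 cerebella, and 33.9, 38.8 and 33.7 CPM in SHH MB. Tumor 3 was below every SHH MB and the other tumors were above every control, and the log2 fold change against SHH MB of 2.92 did not pass (edgeR adjusted p = 0.0522). Slc12a2 (NKCC1), which imports chloride, was between 105 and 264 CPM in tumors, between 104 and 141 CPM in P7 cerebella and between 130 and 145 CPM in SHH MB (log2 fold change 0.40 against SHH MB). DESeq2 called 1 of these 2 genes against SHH MB, Slc12a5, and limma 0. Of 5 genes of GABA-B receptors and their KCTD subunits, 0 passed the edgeR test in either comparison. Against SHH MB, 1 of them had an unadjusted p under 0.05, DESeq2 called 1 and limma 0, and against P7 cerebella all of these counts were 0.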

How the data were processed

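RNA of FFPE tissue was depleted of ribosomal RNA, and CORALL libraries were sequenced. Per the labels, reads were trimmed with Trimmomatic 0.38.1, aligned to GRCm39 with STAR 2.7.8a and counted with featureCounts 2.0.1. The authors deposited raw counts per gene and library, and a table of DESeq2 variance-stabilized values (VST) on a log2 scale, which was used in an alternative for 46123 genes matched by symbol. The annotation and the use of strand are not given in the sources used here. Counts were tested with edgeR 4.0.16 in R 4.3.3 (quasi-likelihood, TMM, filterByExpr, all 10 libraries in the same fit), with Benjamini-Hochberg adjustment over 29952 genes and a call at an adjusted p of at most 0.05. Levels are log2 CPM with a prior count of 2. DESeq2 1.42.0 and limma 3.58.1 were alternatives. Exon lengths and upstream windows came from the GRCm39 annotation, and 40043 genes with 85.7% to 91.8% of the counts had a length. A floor of 3 counts equals 0.307 to 0.744 CPM, and intervals cover counting and library spread only. The naming rule took the 7 subunits, genes of the GABA lists past the test, both chloride transporters, the leading markers, and for each subunit the 3 genes of most like pattern, of which 2 are named for Gabra6. The subunits and lists were chosen with earlier results of these data known. Results of some single genes that the rule took, among them the GABA-A subunit past the test against SHH MB, are not reported here.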

Additional observations from a re-analysis of the deposited data

How the results depend on the processing

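Alternatives numbered 19 for each comparison. Against P7 cerebella, 2 of 7 subunits were called as reported, 0 with limma on the VST values, 1 with no filter on low counts, 0 in a fit of only the 2 groups, 1 with the replicate number as a block, and 0 to 5 with single libraries left out. Against SHH MB the count was 3 as reported, 1 in a fit of only the 2 groups, and 1 to 4 with single libraries left out. Between SHH MB and P7 cerebella it was 0 as reported, 6 in a fit of only the 2 groups, and 0 to 2 with single libraries left out. The 2-group fits estimate the spread from fewer libraries. For the other changes of count the cause was not tested. Gabra2 against SHH MB reversed from 0.20 to −0.22 (limma on VST), −0.07 (at least 10 counts in every library) and −0.46 (replicate block), and ranged from −0.32 to 0.47 with single libraries left out. Gabra5 against SHH MB ranged from −1.22 to 0.06. Replicate numbers did not pair the samples: deviations of same-numbered libraries correlated between −0.274 and 0.162. The Gabra6 share was 85.0%, 30.8% and 16.1% in tumors, P7 cerebella and SHH MB with the longest transcript as length, and 58.4%, 26.6% and 14.5% with all 6 alpha subunits, a sum chosen after seeing the data. With 9 to 17 counts in 3 tumors, depth limits what can be said of Gabra5.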
